A study of Cavia porcellus with 11 samples.

Results

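Interferon-stimulated genes were followed in RNA-seq libraries of guinea pig (Cavia porcellus) cochlea, the coiled hearing organ of the inner ear. Of 39 genes of the interferon response named for this purpose, 32 were found by gene symbol among the 21481 genes of the deposited count table, and all 32 passed the filter on low counts. The remaining 7 (Mx1, Mx2, Ifit1, Oas1, Ifi44, Ifi44l and Gbp2) were not matched by symbol and have no values below. The members were chosen by name and not by a rule on their measured levels, but with earlier results of these data known. The libraries fell into 3 groups. The control group held 4 libraries of cochlea from animals without treatment, which the series design calls wildtype. The cisplatin group held 4 libraries of cochlea after cisplatin, a platinum anticancer drug that damages hearing. The combined group held 3 libraries after cisplatin plus STB, an abbreviation the labels do not spell out in a series whose title names Schisantherin B, a plant lignan. No group received STB alone among these samples. The sources used here do not give strain, sex, age, dose, time after treatment or how many animals went into a library. No label says that replicates are separate animals, so a p-value reflects the spread among these libraries, which may be technical.

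Interferons are secreted proteins that cells release on sensing viral or other foreign nucleic acid. They bind receptors that act through Janus kinases. Stat2 then joins Irf9 in a transcription factor complex, and this complex switches on the interferon-stimulated genes. Genes switched on by the same complex often move together. Their products block viral RNA and protein synthesis, sense more nucleic acid, present antigen and amplify or end the response.

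Library totals ran from 14338894 to 18508296 counts. The tissue label was checked against cochlear markers. Reads were counted in all 11 libraries for 12 of 14 hair cell genes, 12 of 12 spiral ganglion neuron genes and 8 of 11 genes of the stria vascularis, the lateral wall epithelium that pumps potassium. Summed hair cell marker levels ran from 1256 to 2940 CPM (counts scaled to TMM library sizes) over the libraries. Control replicate 4 and cisplatin replicate 2 stood apart from the rest on the second principal component of all genes, which carried 17.1% of the variance. Because these are bulk tissue libraries, fewer cells of a type and less RNA per cell cannot be told apart.

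The interferon-stimulated genes varied mainly from library to library and not from group to group. Control replicate 4 was the highest of the 11 libraries for 30 of the 32 members and the highest control for 32 of 32, while it was the highest library for 10.5% of all 15384 genes tested. Irf1 and Tap1, the other two, were highest in cisplatin replicate 2. In the combined group replicate 3 was the highest library for 26 members. In the cisplatin group the highest library differed from gene to gene, with replicate 3 highest for 14 members, replicate 2 for 11, replicate 4 for 6 and replicate 1 for 1.

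The mean log2 CPM of the 32 members, taken relative to its mean over the libraries, gave the same order. It stood at 0.27, -0.47, -0.46 and 1.53 in control replicates 1 to 4. It was -0.32, -0.09, 0.26 and -0.23 in cisplatin replicates 1 to 4, and -0.37, -0.61 and 0.51 in combined replicates 1 to 3. The libraries of the 3 groups overlapped throughout, with control replicate 4 alone above all others. As group values of mean log2 CPM these were 4.33 ± 0.94 (SD, n = 4) in control, 4.01 ± 0.26 (SD, n = 4) after cisplatin and 3.95 ± 0.59 (SD, n = 3) after the combined treatment. Summed over the members, control replicate 4 held 2709 CPM, the other controls 762 to 1132 CPM, the cisplatin libraries 825 to 1223 CPM and the combined libraries 726 to 1401 CPM.

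**Figure D1:**
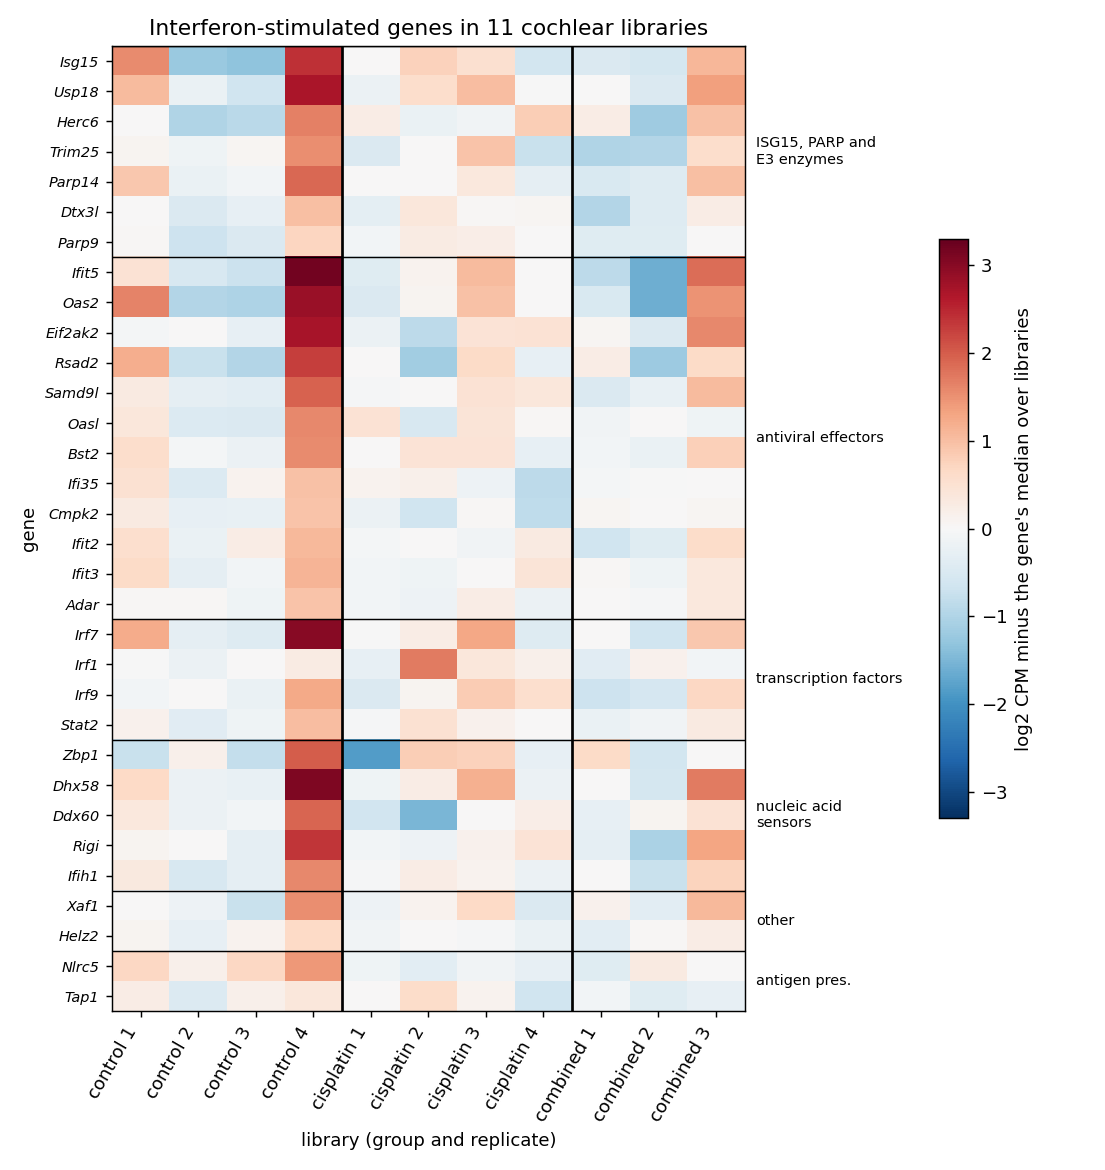
Level of each interferon-stimulated gene (rows, by role) in each of the 11 libraries (columns, by group and replicate), as log2 CPM minus the median of that gene over the libraries. The column of control replicate 4 is high across nearly all rows, combined replicate 3 and control replicate 1 are high for many, and Irf1 is highest in cisplatin replicate 2.

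Among the secreted or conjugated modifiers and their enzymes, Isg15 encodes a ubiquitin-like protein that is attached to other proteins during the response. Isg15 (positions 155854 to 156892, plus strand, exonic length 704 bases) stood at 29.6, 4.18, 3.90 and 53.4 CPM in control replicates 1 to 4, at 9.93, 17.01, 14.3 and 6.46 CPM in cisplatin replicates 1 to 4, and at 7.11, 6.55 and 21.4 CPM in combined replicates 1 to 3. The controls thus held both the highest and the lowest level of this gene, and their range enclosed that of either treated group. Usp18, the protease that removes Isg15 and dampens the receptor, ranged from 8.39 to 86.4 CPM in controls, from 11.6 to 27.0 CPM after cisplatin and from 9.46 to 34.1 CPM after the combined treatment. Herc6, which attaches Isg15 in the mouse, ranged from 3.25 to 20.9 CPM in controls, 5.56 to 11.6 CPM after cisplatin and 2.85 to 13.01 CPM after the combined treatment. Trim25, a ubiquitin ligase acting on Rigi, stood at 126 CPM in control replicate 4, 83.4 CPM in cisplatin replicate 3 and 65.3 CPM in combined replicate 3, and between 21.7 and 46.3 CPM in the other 8 libraries. In the fit over all genes, described below with its test, none of these 4 genes was called in any comparison.

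Parp9 and Dtx3l form an ADP-ribosyltransferase and ubiquitin ligase complex, and Parp14 is a related ADP-ribosyltransferase. Parp9 and Dtx3l lie head to head with 21 bases between them, and over the 11 libraries their levels had a Spearman correlation of 0.855, a description of libraries that share depth and tissue makeup. Parp9 was expressed at 79.6 ± 36.6 CPM (SD, n = 4) in controls, 85.9 ± 10.1 CPM (SD, n = 4) after cisplatin and 67.3 ± 11.6 CPM (SD, n = 3) after the combined treatment. These 3 groups overlapped. Parp14 reached 31.4 CPM in control replicate 4 and lay between 5.88 and 16.6 CPM elsewhere.

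The 12 antiviral effectors had a median log2 CPM range of 1.99 over the libraries, against 3.43 for the 5 sensors and 2.53 for the 7 modifiers, but held the 2 members with the widest range, Ifit5 and Oas2. Ifit5, a member of the family that binds foreign RNA ends, stood at 46.5, 23.1, 20.5 and 307 CPM in control replicates 1 to 4, at 25.7, 36.6, 70.0 and 33.6 CPM in cisplatin replicates 1 to 4, and at 18.5, 10.8 and 121 CPM in combined replicates 1 to 3. Its range of 4.81 on the log2 CPM scale was the widest of the 32 members, against a median range of 0.90 over all genes tested. Control replicate 4 held 10.2 times the mean of the other 3 controls. Ifit2 and Ifit3, the neighbouring genes of the same family, were less variable. Ifit2 ranged from 4.39 to 14.9 CPM and Ifit3 from 9.99 to 27.3 CPM over all libraries. The deposited span of Ifit3 shares 6485 bases on the same strand with Ifit1b, a related gene at 15.1 to 101 CPM, so the division of reads between them is uncertain.

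Oas2, which makes the oligoadenylates that activate RNA breakdown, stood at 10.1, 1.56, 1.495 and 23.6 CPM in control replicates 1 to 4, at 2.25, 3.36, 6.29 and 3.17 CPM in cisplatin replicates 1 to 4, and at 2.197, 0.951 and 9.09 CPM in combined replicates 1 to 3. Its log2 CPM range of 4.47 was the second widest, and all groups overlapped. Oasl, the oligoadenylate synthetase-like gene, ranged from 1.75 to 8.09 CPM.

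Rsad2 encodes viperin, an enzyme that makes a chain-terminating nucleotide. Rsad2 stood at 41.3, 10.68, 9.04 and 87.4 CPM in control replicates 1 to 4, at 17.9, 7.96, 27.6 and 14.7 CPM in cisplatin replicates 1 to 4, and at 21.1, 7.77 and 27.8 CPM in combined replicates 1 to 3. Control replicates 1 and 4 were the highest libraries, and control replicates 2 and 3 lay within the range of the treated groups. Cmpk2, a mitochondrial nucleotide kinase gene that lies head to head with Rsad2 at a distance of 8457 bases, had a Spearman correlation of 0.773 with it over the 11 libraries. Cmpk2 stood at 21.3 ± 9.0 CPM (SD, n = 4) in controls, 13.6 ± 3.84 CPM (SD, n = 4) after cisplatin and 18.2 ± 0.522 CPM (SD, n = 3) after the combined treatment, and the control and cisplatin libraries overlapped.

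**Figure D2:**
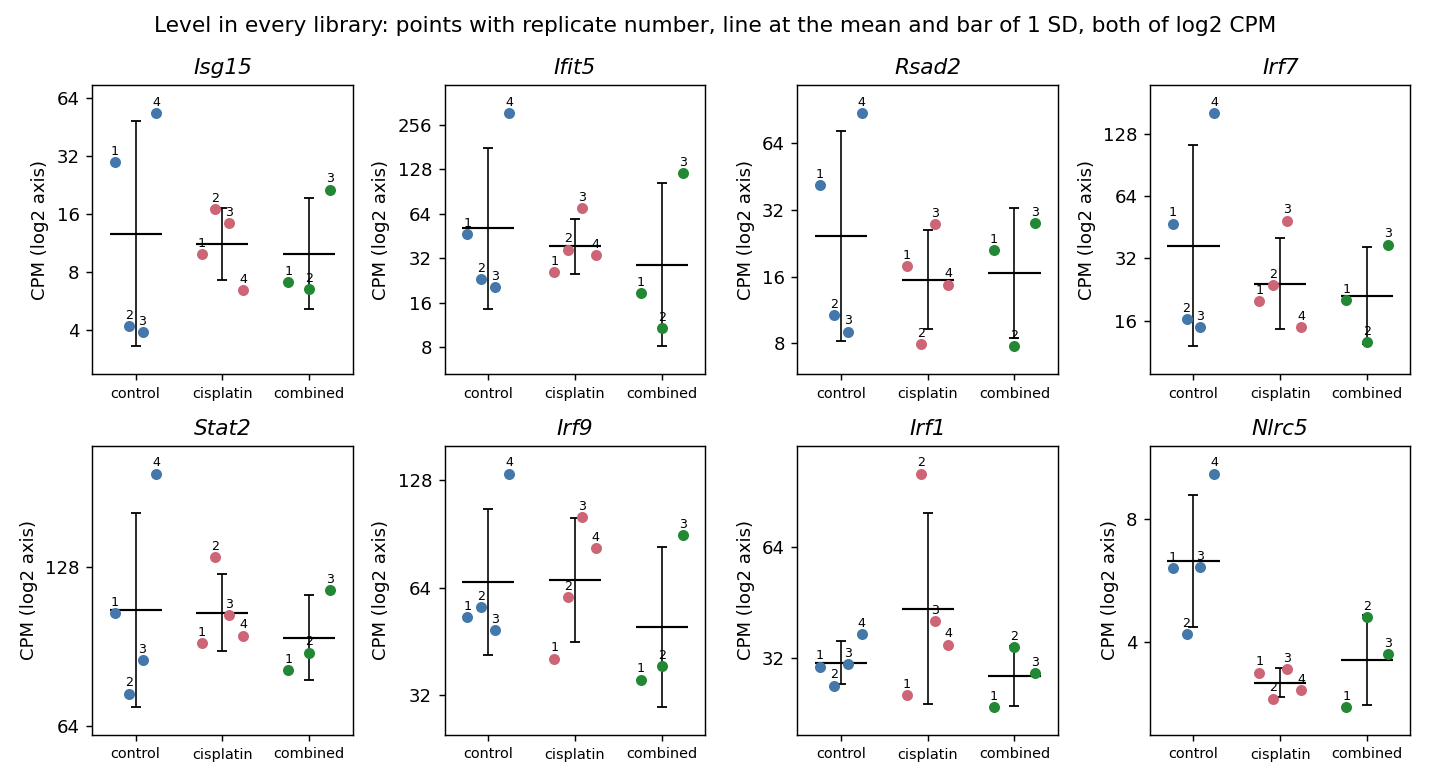
CPM on a log2 axis in every library for 8 interferon-stimulated genes, with the replicate number beside each point; horizontal lines are group means and bars 1 SD, both taken on log2 CPM (n = 4, 4 and 3). Control replicate 4 is highest for 7 of the 8 genes, Irf1 is highest in cisplatin replicate 2, and Nlrc5 alone has cisplatin libraries that all lie below the controls.

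Bst2 encodes tetherin, which holds budding virus at the cell surface. By length-corrected level (FPKM) it was the most abundant member, at a mean of 132 FPKM and a range of 79.4 to 297 FPKM over the libraries. Bst2 stood at 148, 93.4, 86.3 and 290 CPM in control replicates 1 to 4, at 98.2, 134, 133 and 80.8 CPM in cisplatin replicates 1 to 4, and at 91.7, 84.7 and 169 CPM in combined replicates 1 to 3. All groups overlapped, with control replicate 4 the highest. Adar, an RNA-editing deaminase with both constitutive and interferon-driven transcripts, ranged from 131 to 191 CPM in 10 libraries and reached 285 CPM in control replicate 4. Eif2ak2 encodes the kinase PKR, which halts translation on double-stranded RNA. Eif2ak2 reached 36.0 CPM in control replicate 4 and 16.3 CPM in combined replicate 3, and lay between 2.91 and 7.56 CPM in the other 9 libraries. Samd9l, a translation-restricting antiviral factor, reached 99.9 CPM in control replicate 4 and 53.4 CPM in combined replicate 3 against 18.5 to 36.3 CPM elsewhere. Ifi35, an interferon-induced leucine zipper protein, ranged from 9.39 to 33.9 CPM.

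Among the signalling transcription factors, Stat2 is the partner of Irf9. Stat2 stood at 105, 73.8, 85.4 and 193 CPM in control replicates 1 to 4, at 92.2, 134, 104 and 95.1 CPM in cisplatin replicates 1 to 4, and at 81.7, 88.3 and 116 CPM in combined replicates 1 to 3. It was the second most abundant member by length-corrected level, at a mean of 38.0 FPKM, and its groups overlapped.

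Irf9, the DNA-binding subunit of the complex, stood at 52.8, 56.3, 48.6 and 134 CPM in control replicates 1 to 4, at 40.4, 60.1, 101 and 82.5 CPM in cisplatin replicates 1 to 4, and at 35.3, 38.5 and 89.7 CPM in combined replicates 1 to 3. Its mean level was 33.9 FPKM, the third highest. Irf7, the factor that amplifies interferon production, stood at 47.2, 16.2, 14.8 and 162 CPM in control replicates 1 to 4, at 19.8, 23.7, 48.7 and 14.9 CPM in cisplatin replicates 1 to 4, and at 20.0, 12.6 and 37.3 CPM in combined replicates 1 to 3. Both genes thus shared the high control replicate 4 and were high in cisplatin replicate 3 and combined replicate 3 within their groups.

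Irf1, a factor that responds to interferon gamma and to inflammatory signals, went its own way. Irf1 stood at 30.3, 26.9, 30.8 and 37.2 CPM in control replicates 1 to 4, at 25.4, 101, 40.2 and 34.8 CPM in cisplatin replicates 1 to 4, and at 23.6, 34.2 and 29.0 CPM in combined replicates 1 to 3. A single library, cisplatin replicate 2, stood above the rest. In that library Socs3, which ends cytokine signalling, stood at 137 CPM and Ccl2, a monocyte-attracting chemokine, at 79.3 CPM. The other 10 libraries held 2.84 to 9.15 CPM of Socs3 and 0.975 to 5.03 CPM of Ccl2. The part of these genes in the Irf1 value was not tested.

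The cytosolic sensors were also led by control replicate 4. Rigi, a sensor of viral RNA ends, reached 78.2 CPM there, 37.2 CPM in combined replicate 3 and 7.29 to 20.7 CPM elsewhere. Ifih1 encodes MDA5, a sensor of long double-stranded RNA, and it reached 41.3 CPM in control replicate 4 and 22.7 CPM in combined replicate 3 against 8.19 to 17.3 CPM elsewhere. Dhx58, their regulatory relative, reached 185 CPM in control replicate 4 and 70.9 CPM in combined replicate 3 against 14.4 to 48.8 CPM elsewhere. These 3 related receptors therefore had the same leading libraries. Ddx60, a helicase linked to RNA sensing, reached 14.5 CPM in control replicate 4 and ranged from 1.23 to 5.24 CPM elsewhere.

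Zbp1, which senses Z-form nucleic acid and can trigger cell death, was the least abundant member at a mean of 0.257 FPKM and 134 counts in all. Zbp1 stood at 0.275, 0.625, 0.260 and 2.51 CPM in control replicates 1 to 4, at 0.0624, 1.03, 1.01 and 0.427 CPM in cisplatin replicates 1 to 4, and at 0.905, 0.317 and 0.542 CPM in combined replicates 1 to 3. Its lowest library held 1 count and its highest 46 counts, with a log2 CPM range of 3.83. Control replicate 4 held the 46 counts. Of the other induced regulators, Xaf1, a binder of an apoptosis inhibitor, ranged from 4.10 to 20.4 CPM and Helz2, a nuclear receptor coactivator, from 29.5 to 59.1 CPM. Helz2 had the narrowest log2 CPM range of the members, at 1.00.

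Nlrc5, the transactivator of class I antigen-presentation genes, was the member that differed most between groups. Nlrc5 (positions 83910041 to 83985292, plus strand) stood at 6.06, 4.18, 6.11 and 10.3 CPM in control replicates 1 to 4, at 3.37, 2.91, 3.44 and 3.05 CPM in cisplatin replicates 1 to 4, and at 2.78, 4.60 and 3.73 CPM in combined replicates 1 to 3. All 4 cisplatin libraries lay below all 4 controls, while combined replicate 2 lay within the control range. It was a low gene, at a mean of 0.440 FPKM and 43 to 189 counts per library. Tap1, which carries peptides to class I molecules, ranged from 11.5 CPM in cisplatin replicate 4 to 27.9 CPM in cisplatin replicate 2, so the cisplatin group alone spanned all libraries.

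Set against all genes tested, the members combined a wide spread with little difference between groups. The median SD of log2 CPM within the control group was 0.96 for members and 0.22 for all genes, and without control replicate 4 it was 0.40 and 0.19. Within the cisplatin group the medians were 0.47 for members and 0.27 for all genes, and within the combined group 0.70 and 0.26. The wider spread of the members was thus present in each group. Of the 32 members, 11 lay above the 95th percentile of the log2 CPM range over all genes, 3.01, and 0 lay below its median. The share of a gene's variance that lay between the 3 groups had a median of 9.24% for members and 16.7% for all genes, and 25 members lay below the latter. Only Nlrc5, at 64.8%, lay above the 95th percentile of 58.5%. Cmpk2 at 34.3%, Ddx60 at 27.8%, Ifit2 at 24.1% and Irf1 at 23.7% came next.

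**Figure D3:**
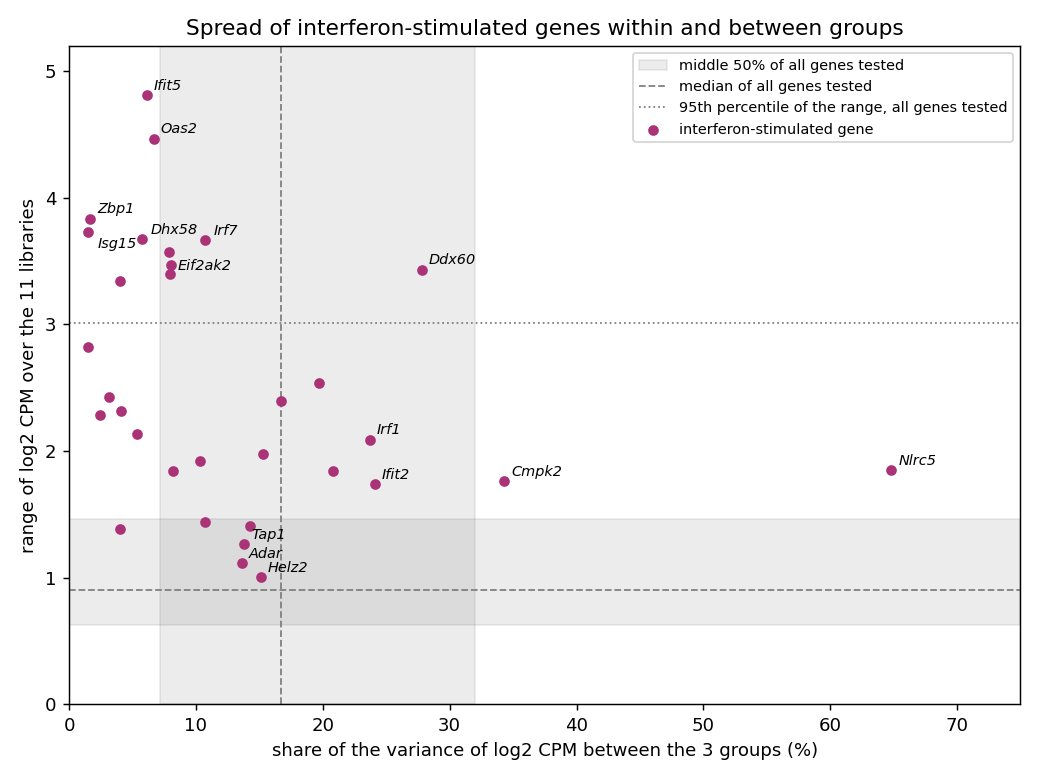
Range of log2 CPM over the 11 libraries (vertical) against the share of variance of log2 CPM that lies between the 3 groups (horizontal, %) for each of the 32 members, with the median and middle 50% of all 15384 genes tested. Most members sit high and to the left, with Ifit5 at a range of 4.81, and Nlrc5 sits alone at 64.8% between groups.

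Most members rose and fell together across the libraries. Each member's Spearman correlation with the mean of the other members over the 11 libraries had a median of 0.755, and 0.673 over the 10 libraries without control replicate 4. These are descriptions over libraries that share depth and tissue makeup. Oas2 followed the others most closely at 0.964, then Ifit5 and Ifih1 at 0.955 and Usp18 at 0.945. Nlrc5 at 0.064, Irf1 at 0.345 and Ifi35 at 0.382 followed them least. Without control replicate 4 these 3 values were -0.248, 0.212 and 0.176.

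In the comparison of cisplatin with control, none of the 32 members was called in edgeR's quasi-likelihood test at a Benjamini-Hochberg adjusted p under 0.05, beside 0% of the 15384 genes tested, and DESeq2 and limma-voom called none of them either. Over all genes edgeR called 0, DESeq2 33 and limma-voom 3. At an unadjusted p under 0.05, 3 members were lower and 0 higher, beside 9.71% of all genes in either direction, and 1 member had groups that did not overlap, beside 6.06% of all genes. The members' counts were therefore close to or below the background. The fitted log2 fold change was negative for 30 members and positive for 2, with a median of -0.50 against -0.01 for all genes.

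This direction rested on control replicate 4. Without that library 20 members had a positive and 12 a negative log2 fold change, with a median of 0.12. In that fit 1 member was higher and 1 lower at an unadjusted p under 0.05, beside 8.62% of all genes. The leading members by edgeR were as follows, with the Benjamini-Hochberg adjusted p over all genes. Nlrc5 came first at -1.06 on the log2 scale (SE 0.29, adjusted p = 0.44), and -0.77 without control replicate 4. Cmpk2 had -0.64 (SE 0.27, adjusted p = 0.498) and Ddx60 -1.15 (SE 0.51, adjusted p = 0.512). Without control replicate 4 these became -0.32 and -0.38. Irf1 had 0.68 (SE 0.36, adjusted p = 0.554), and 0.10 without cisplatin replicate 2. Ifi35 had -0.52 (SE 0.28, adjusted p = 0.568), and -0.24 without control replicate 4. The genes with the lowest fitted values, Oas2 at -1.29 and Ifit5 at -1.26, moved to -0.21 and 0.47 without it.

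In the comparison of the combined treatment with cisplatin alone, no member was called by edgeR, DESeq2 or limma-voom, beside 0.0195% of all genes (3 genes) by edgeR. At an unadjusted p under 0.05 there were 0 members in either direction, beside 9.03% of all genes, and 0 members had groups that did not overlap, beside 7.54%. The fitted log2 fold change was positive for 20 members and negative for 12, with a median of 0.06 against 0.01 for all genes. Without combined replicate 3 the median was -0.43. The smallest p belonged to Irf1, at -0.80 on the log2 scale (SE 0.39, edgeR adjusted p = 0.591), and -0.23 without cisplatin replicate 2. Cmpk2 had 0.42 (SE 0.29, adjusted p = 0.712), Parp9 -0.35 (SE 0.28, adjusted p = 0.763), Tap1 -0.33 (SE 0.27, adjusted p = 0.766) and Dtx3l -0.36 (SE 0.36, adjusted p = 0.827). Tap1 had -0.12 without cisplatin replicate 2 and -0.53 without cisplatin replicate 4, and Dtx3l had -0.73 without combined replicate 3 and -0.11 without combined replicate 1.

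The comparison of the combined treatment with control shares its libraries with the other two comparisons. No member was called by edgeR, DESeq2 or limma-voom, beside 0% of all genes by each of them. At an unadjusted p under 0.05, 1 member was lower, beside 1.07% of all genes, and 0 members had groups that did not overlap, beside 2.41%. All 32 fitted log2 fold changes were negative, with a median of -0.51 against -0.003 for all genes. Without control replicate 4, 19 were positive and 13 negative, with a median of 0.07, and without combined replicate 3 the median was -0.86. Nlrc5 stood at -0.85 on the log2 scale (SE 0.31, edgeR adjusted p = 1), and -0.55 without control replicate 4. Ifit2 had -0.54 (SE 0.35), Irf7 -1.37 (SE 0.87), Trim25 -0.82 (SE 0.59) and Tap1 -0.36 (SE 0.27), each with an adjusted p of 1. Without control replicate 4 Ifit2 had -0.28, Irf7 -0.16 and Trim25 -0.26, and without combined replicate 3 Ifit2 had -1.03 and Trim25 -1.55.

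**Figure D4:**
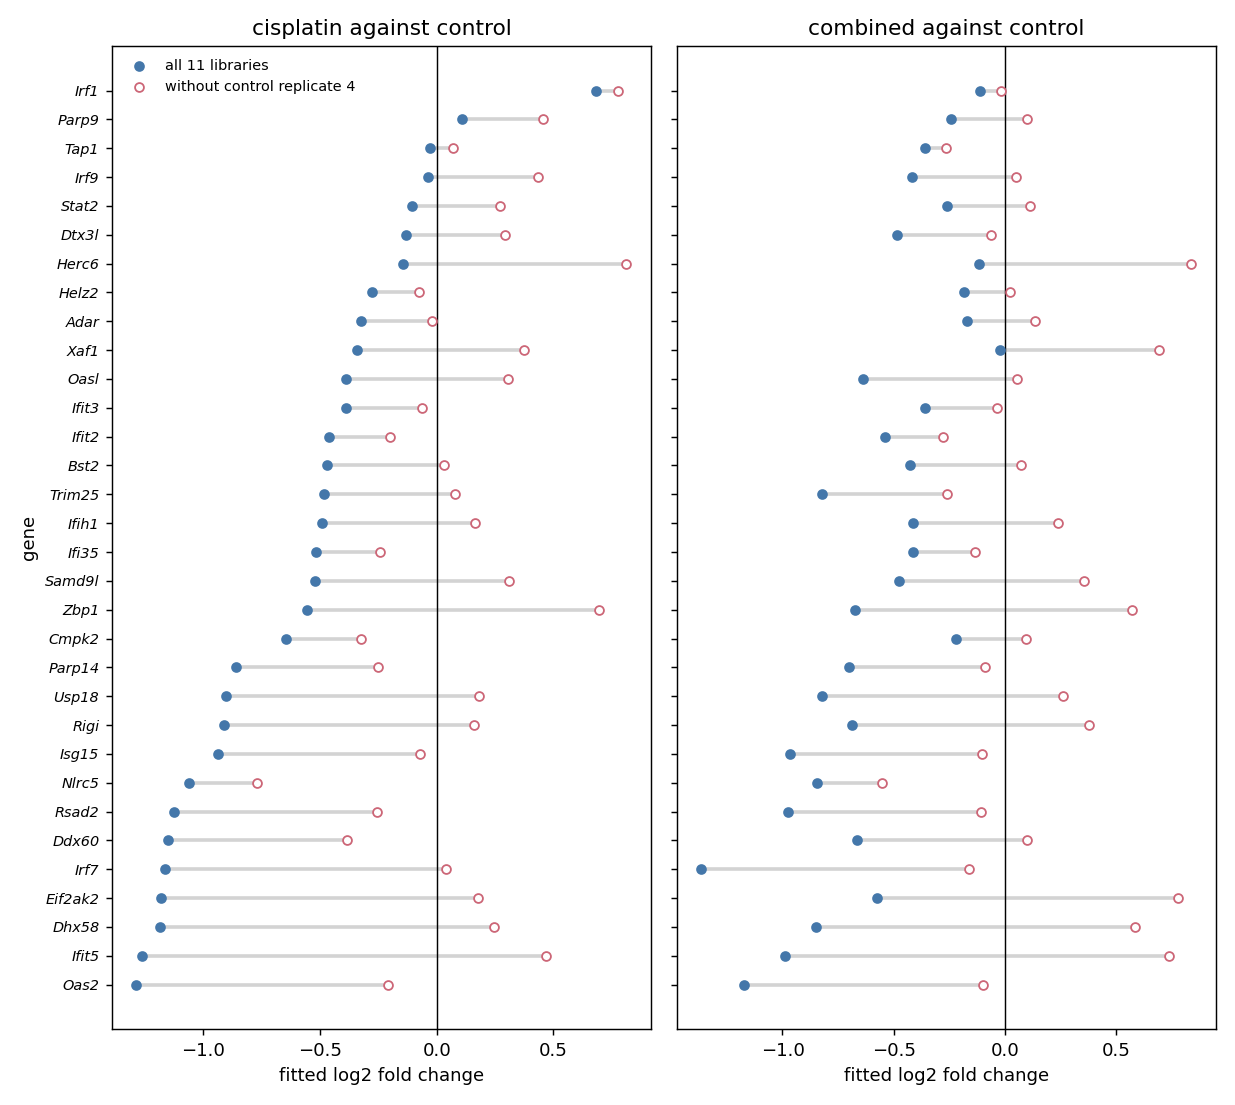
Fitted log2 fold change of each member for cisplatin against control (left) and the combined treatment against control (right), with all 11 libraries (filled) and without control replicate 4 (open). The filled points are negative for 30 and 32 of the 32 members, while the open points are positive for 20 and 19 of them.

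By role, the median log2 fold change of cisplatin against control was -0.48 for the 7 modifiers and their enzymes, -0.52 for the 12 antiviral effectors, -0.07 for the 4 transcription factors, -0.91 for the 5 sensors, -0.31 for the 2 other induced regulators and -0.55 for the 2 antigen-presentation genes. For the combined treatment against cisplatin these medians were -0.03, 0.11, -0.29, 0.22, 0.21 and -0.06. Without control replicate 4 the medians of cisplatin against control became 0.18, -0.04, 0.35, 0.16, 0.15 and -0.35, so 4 of the 6 roles changed sign. No role held a called member.

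Lists of related pathway genes were followed in the same fit. Over these lists edgeR called no gene in any comparison, while of the list genes named here limma-voom called Ticam1, Ifi30 and Txnip, comparing the combined treatment with cisplatin. Of the ligands, Ifng, the interferon gamma gene, had 0 counts in all 11 libraries, and Ifne had 34 counts in all. The row the deposited table describes as interferon beta stood at 10.6 to 23.2 CPM in controls and 12.9 to 24.5 CPM after cisplatin. After the combined treatment it stood at 10.72 to 19.13 CPM. Its highest value was in cisplatin replicate 3 and the next in control replicate 4. The 5 interferon receptor genes tested had median log2 fold changes of 0.19 for cisplatin against control, -0.22 for the combined treatment against cisplatin and -0.01 for the combined treatment against control. Ifnar1, the signalling chain of the type I receptor, stood at 63.2 ± 4.87 CPM (SD, n = 4) in controls, 72.2 ± 4.42 CPM (SD, n = 4) after cisplatin and 61.8 ± 1.65 CPM (SD, n = 3) after the combined treatment. Its log2 fold changes were 0.19 (SE 0.10, edgeR adjusted p = 0.536) and -0.22 (SE 0.11, adjusted p = 0.565) in the first 2 of these comparisons. In control replicate 4 Ifnar1 stood at 66.2 CPM, within the 56.4 to 67.2 CPM of the other controls.

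Among the signal transducers, the kinase gene Jak1 varied little in controls, at 147 ± 1.65 CPM (SD, n = 4). Of the 4 transducers, 1 was lower after the combined treatment than after cisplatin at an unadjusted p under 0.05, beside 9.03% of all genes. For 1 of the 4 these groups did not overlap, beside 7.54% of all genes. The mean log2 CPM of the 4, relative to its mean over the libraries, was highest in control replicate 4, at 0.53. Among 13 tested genes of nucleic acid sensing and its adaptors, 2 were lower after cisplatin than in control at an unadjusted p under 0.05 and 2 were higher after the combined treatment than after cisplatin, beside 9.71% and 9.03% of all genes in either direction. Ticam1, the adaptor of the double-stranded RNA receptor Tlr3, led both, and all 4 cisplatin libraries lay below every library of the other groups. It stood at 5.12 ± 0.804 CPM (SD, n = 4) in controls, 2.75 ± 0.522 CPM (SD, n = 4) after cisplatin and 5.41 ± 1.61 CPM (SD, n = 3) after the combined treatment. Its log2 fold changes were -0.90 (SE 0.26, edgeR adjusted p = 0.44) and 0.98 (SE 0.28, adjusted p = 0.369), and limma-voom gave 1.23 (adjusted p = 0.0425) for the latter. Tlr3 itself had -0.74 (SE 0.29, edgeR adjusted p = 0.481) for cisplatin against control.

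Among 11 tested negative regulators, 3 were higher and 1 lower after cisplatin at an unadjusted p under 0.05, beside 9.71% of all genes. Of the 11, 3 had groups that did not overlap, beside 6.06% of all genes. These included Irf2bp1, at -0.49 on the log2 scale (SE 0.19, edgeR adjusted p = 0.465), and Otud1, at 0.31 (SE 0.13, adjusted p = 0.497). With each library left out in turn, Irf2bp1 ran from -0.575 to -0.368 and Otud1 from 0.269 to 0.357. Socs3 came out at 2.61 on the log2 scale (SE 1.04, edgeR adjusted p = 0.491), and 0.19 without cisplatin replicate 2. A further 37 tested interferon-stimulated genes outside the 32 had median log2 fold changes of -0.16 for cisplatin against control, -0.04 for the combined treatment against cisplatin and -0.26 for the combined treatment against control. Without control replicate 4 the medians against control, over the 36 that then passed the filter, were 0.02 and 0.01. At an unadjusted p under 0.05, 2 of them were higher and 3 lower in the first of these comparisons, beside the 9.71% of all genes above. Ccl2 had 3.13 (SE 1.29, edgeR adjusted p = 0.508), and 0.07 without cisplatin replicate 2. Cxcl10, a T cell-attracting chemokine, had -2.20 (SE 0.98, edgeR adjusted p = 1) for the combined treatment against control, at 0.323 to 6.83 CPM over the libraries, and -1.24 without control replicate 4. Of 13 class I antigen-presentation genes, Tap2, the partner of Tap1, had the smallest p after cisplatin, with -0.52 (SE 0.22, edgeR adjusted p = 0.507). Of 5 class II genes, Ifi30, a lysosomal thiol reductase, had 0.44 (SE 0.19, edgeR adjusted p = 0.512) for cisplatin against control and -0.69 (SE 0.21, adjusted p = 0.394) when combined and cisplatin libraries were compared.

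Rows without a gene symbol that the deposited table describes as Mx, OAS or GBP proteins followed the members in their summed level. This list of 13 rows was drawn up after the data had been seen, and 12 of its rows passed the filter. Their summed level was 297, 104, 83.3 and 784 CPM in control replicates 1 to 4, 121, 122, 187 and 73.8 CPM in cisplatin replicates 1 to 4, and 102, 88.7 and 305 CPM in combined replicates 1 to 3. Control replicate 4, control replicate 1 and combined replicate 3 were again the highest, and the groups overlapped. Single rows could differ from the sum. LOC100735241 and LOC100714630 were highest in control replicate 1, at 21.89 and 3.44 CPM, against 20.55 and 2.35 CPM in control replicate 4. The remaining rows with counts were highest in control replicate 4. The most abundant of them per length, LOC134470419, described as Mx1-like, had 1296, 429, 285 and 5656 counts in control replicates 1 to 4, 568, 572, 1006 and 326 counts in cisplatin replicates 1 to 4, and 484, 295 and 1976 counts in combined replicates 1 to 3. None of the 12 was called by edgeR in any comparison, and their median log2 fold changes were -1.06, 0.28 and -0.79 for cisplatin against control, the combined treatment against cisplatin and the combined treatment against control. Without control replicate 4 the medians against control were -0.21 and -0.11.

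Among genes that are not members, those reported here whose levels ranked most like the mean of the members over the 11 libraries were Samd9 (Spearman correlation 0.882), Rhno1, Rab31, B2m and Rarres1 (each 0.873), Zc3hav1 and Ccdc194 (each 0.864), and Snapc1 and Nt5c3a (each 0.855). Samd9 stood at 14.6 CPM in control replicate 4 and 0.650 to 2.00 CPM in the other controls. It shares 18842 bases on the same strand with the member Samd9l, so the division of reads between them is uncertain and its likeness is not independent of that member. B2m, the shared light chain of class I molecules, differed less, at 990 to 1443 CPM in controls.

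**Figure D5:**
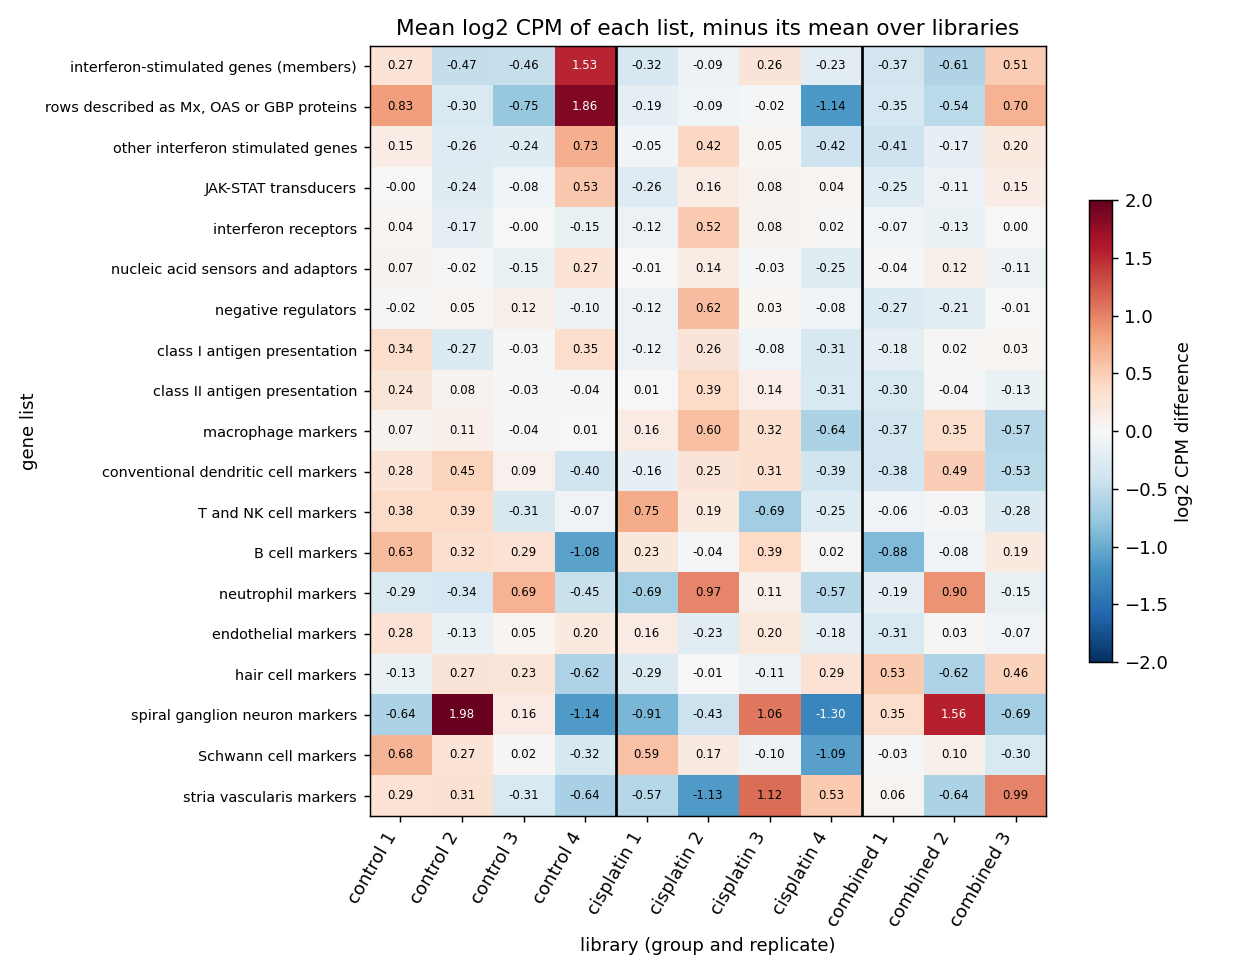
Mean log2 CPM of each gene list (rows) in each of the 11 libraries (columns), minus its mean over the libraries. Control replicate 4 stands at 1.53 for the members and 1.86 for the rows described as Mx, OAS or GBP proteins, but at 0.01 for macrophage markers and -1.08 for B cell markers.

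Summed markers of immune cells were not higher in control replicate 4 than in the other controls, except for a plasmacytoid dendritic cell list that holds the member Bst2. Of 16 macrophage markers, 15 were in the table and 14 had a count in that library, which held 178 CPM of them in sum against 172 to 180 CPM in the other controls; Adgre1 was at 0. Conventional dendritic cell markers summed to 13.2 CPM there and 14.8 to 22.4 CPM in the other controls, with Clec9a and Ccr7 at 0. T and NK cell markers summed to 2.79 CPM against 3.25 to 5.99 CPM, with Cd2, Cd8a and Prf1 at 0. B cell markers summed to 1.202 CPM against 2.54 to 6.61 CPM, with Ms4a1, Pax5 and Blk among those at 0, and neutrophil markers to 5.03 CPM against 6.13 to 11.7 CPM, with Mpo and Mmp8 at 0. Plasmacytoid dendritic cell markers summed to 423 CPM against 202 to 278 CPM in the other controls, and the difference was that of the member Bst2: the 4 other genes measured summed to 133 CPM there and 116 to 134 CPM in the other controls. Cochlear markers also differed in control replicate 4. Hair cell markers summed to 1256 CPM against 2063 to 2569 CPM in the other controls. Fibrocyte and matrix markers summed to 44250 CPM against 29230 to 39180 CPM. Spiral ganglion neuron markers summed to 834 CPM against 1095 to 5510 CPM, and Schwann cell markers to 4683 CPM against 5755 to 9110 CPM. Stria vascularis markers summed to 2752 CPM against 1918 to 2078 CPM. Their mean log2 CPM, relative to its mean over the libraries, was instead the lowest of the controls, at -0.64 against -0.31 to 0.31. Endothelial markers summed to 710.5 CPM against 516 to 688 CPM, and the sum of bone cell markers lay within the other controls. By mean log2 CPM, relative to its mean over the libraries, endothelial markers lay within the other controls, at 0.20 against -0.13 to 0.28. Bone cell markers were by that measure the lowest of the controls, at -0.38 against 0.077 to 0.555. Control replicate 4 was also the most deeply sequenced library. The part of cochlear makeup and depth in the members' levels was not tested.

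Several members share their position with another gene, and the sources used here do not say whether reads were counted by strand. Isg15 lies over its whole length within Noc2l on the opposite strand, Irf1 within Rad50 and Eif2ak2 within Gpatch11, and Rigi shares 9291 bases with Topors on the same strand. The level of Noc2l in control replicate 4 was 0.806 times the mean of the other controls, that of Rad50 0.879 times, and those of Gpatch11 and Topors 1.34 times each. The height of Isg15 in control replicate 4, 4.25 times the other controls, was thus not shared by Noc2l. Eif2ak2 stood there at 7.21 times the other controls. Gpatch11, at 1.34 times, was also at its highest over all libraries there, at 39.95 CPM. The partners on the same strand of Samd9l and Ifit3 shared the height of control replicate 4. Samd9 stood at 12.2 times and Ifit1b at 3.18 times the mean of the other controls.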

How the data were processed

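Per the file headers, the deposited table holds unnormalized counts and FPKM per gene and library. The submitters' processing notes name cutadapt (1.9.1), HISAT2 (2.2.1) and also HTSeq (0.6.1). Per the labels' protocols, libraries were dUTP-stranded, from poly(A) selection or rRNA depletion. The sources used here do not give the enrichment of each library, the genome build or the strand setting of counting. Positions are as deposited, and all 32 members have the same start and end in RefSeq assembly mCavPor4.1. FPKM, set by the authors per exonic length and library total, was used only to rank levels between genes. Counts were fitted with edgeR 4.0.16 in R 4.3.3: filterByExpr by group kept 15384 genes, TMM scaling, glmQLFit with robust estimation on all 11 libraries as 3 groups, glmQLFTest, and Benjamini-Hochberg adjustment over all genes tested with calls under 0.05. Log2 CPM used a prior count of 2. Alternatives were DESeq2 1.42.0, limma 3.58.1 (voom with sample quality weights), other scalings, no filter, a replicate block and leaving out each library. Simulated counts with known changes were used to check the fit. No libraries were identical.

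Members and gene lists were chosen with earlier results of these data known. Per comparison the 5 members with the smallest p were named; values in every library were given for the smallest p, the 3 highest FPKM, the 3 widest ranges and Isg15, Mx1 (not matched), Rsad2, Stat2, Irf7 and Irf9; genes of the most similar rank pattern (among the top 10) and up to 3 per list were added. Results for some genes are not reported here. Sequences were not used here.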

Additional observations from a re-analysis of the deposited data

Results flagged for a closer look

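In control replicate 4, 10 of the 32 members lay so far above the other 3 controls that the gap took more of the group's range than Dixon's 95% critical value for 4 samples (0.829). These were Ifit5 at 306.9 CPM (next highest control 46.5), Irf9 at 133.6 CPM (56.3), Rigi at 78.2 CPM (16.2), Dhx58 at 184.8 CPM (34.4) and Ddx60 at 14.48 CPM (4.75). The others were Zbp1 at 2.514 CPM (next highest control 0.625), Eif2ak2 at 35.96 CPM (5.37), Adar at 284.9 CPM (154), Trim25 at 126.3 CPM (46.3) and Samd9l at 99.9 CPM (31.9). For normally distributed values chance marks about 1 group in 20 in this way, counting any library at either end. The shares given next count control replicate 4 as the high library only, so that rate does not apply to them. The share was 31.2% of the members, against 2.07% of all genes tested (319 genes) with control replicate 4 as the high library. No member was marked in the cisplatin group, and the combined group, with 3 libraries, was not examined in this way.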

How the results depend on the processing

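Under every alternative run, 0 members were called in each of the 3 comparisons, and the log2 fold changes of the genes named for their smallest p kept their sign; that of Ifit5 for cisplatin against control did not without control replicate 4 (-1.26 and 0.47). The number of all genes called for cisplatin against control, 0 by edgeR, was 33 with DESeq2, 3 with limma-voom with sample quality weights, 1 with no low-count filter, and 0 to 7 with each library left out in turn (7 without cisplatin replicate 1). For the combined treatment against cisplatin, 3 by edgeR, it was 0 with only the groups compared, 0 with the replicate block, 101 with DESeq2, 235 with limma-voom and 0 to 23 with a library left out (0 without cisplatin replicate 3, 23 without combined replicate 3). For the combined treatment against control it was 0, and 0 to 2 with a library left out. The members' median log2 fold change ran from -0.71 to 0.12, from -0.43 to 0.22 and from -0.86 to 0.07 in these comparisons with each library left out. With limma-voom, which gave control replicate 4 a weight of 0.599 and combined replicate 3 a weight of 0.498, it was 0.13, -0.30 and -0.21. With the replicate block it was -0.37, 0.14 and -0.21. The correlations of same-numbered deviations ran from -0.308 to 0.358, and those of other-numbered deviations from -0.477 to 0.551. These ranges overlap and the labels state no pairing, so whether replicate numbers pair the libraries was not settled. Comparing the combined treatment with cisplatin, limma-voom called 3 named genes of the pathway lists: Ticam1 (adjusted p = 0.0425), Txnip (log2 fold change -0.57, adjusted p = 0.0468) and Ifi30 (-0.94, adjusted p = 0.039). The cause of these differences was not tested. Other scalings moved neither the direction nor any call of the members. Zbp1, at 1 to 46 counts, has the lowest depth. The list of rows described as Mx, OAS or GBP proteins was added after seeing the data.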
